A study of Mus musculus with 42 samples.

Results

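All 10 forestomach arrays from mice given benzo(k)fluoranthene (BkF) were treated as 1 group and compared with the 4 forestomach arrays from mice given vehicle. These 14 arrays were taken from the 42 arrays of the series by the dose code in their titles, and the other arrays hold 15 lung and 13 liver samples. BkF is a polycyclic aromatic hydrocarbon. The dosed mice comprised 3 at 25 mg/kg-bw/day (D1), 4 at 50 mg/kg-bw/day (D2) and 3 at 100 mg/kg-bw/day (D3), and the vehicle group (D0) comprised 4 mice given olive oil alone. All were male Muta™Mouse of about 11 weeks, a transgenic strain in which every animal, controls included, carries a bacterial reporter gene for mutation assays. Gavage was daily for 28 days and tissue was taken 72 hours after the final dose. Each array held RNA from random sections of the forestomach of 1 mouse, so its values average over all cell types present, and a lower level from fewer cells of a type and from less RNA per cell cannot be told apart. The sample RNA was labelled with Cy5 and a universal mouse reference RNA with Cy3, so every level given here is a log2 ratio of forestomach over the same reference after loess normalisation within the array.

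Polycyclic aromatic hydrocarbons bind the aryl hydrocarbon receptor (AhR), which moves to the nucleus, pairs with Arnt and activates genes through short DNA elements known as xenobiotic response elements. Its best known targets are the cytochrome P450 genes Cyp1a1 and Cyp1b1, whose enzymes oxidise these compounds to reactive metabolites, and Ahrr, which encodes a repressor of the receptor. The rodent forestomach, which an oral dose meets first, is lined by a stratified squamous epithelium: a basal layer that is anchored to the basement membrane by integrins and laminins renews the tissue, and the cells above it make other keratins and then the proteins of the cornified envelope. It borders directly on the glandular stomach.

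Cyp1a1, Cyp1b1 and Ahrr had the largest differences between BkF and vehicle in the AhR battery (limma, unadjusted p under 0.05 for each). Cyp1a1 and Ahrr were well above background on 1 and 2 of 4 vehicle arrays and on 8 of 10 BkF arrays each. They were thus kept for testing only through the BkF mice, so their choice here is no evidence of an effect. The promoters of Cyp1a1, Cyp1b1 and Ahrr are shown. Each runs from 250 bases before to 50 bases after the RefSeq start site on GRCm38.p6, 5′ to 3′ on the strand of the gene, with each match to the core of the response element, GCGTG on the gene's strand or CACGC on the other, in capitals. Of the 12 genes of the battery, 10 had an entry. Cyp1a1 lies at chr9:57697363-57697662 on the plus strand, Cyp1b1 at chr17:79715012-79715311 on the minus strand and Ahrr at chr13:74292282-74292581 on the minus strand.
Cyp1a1: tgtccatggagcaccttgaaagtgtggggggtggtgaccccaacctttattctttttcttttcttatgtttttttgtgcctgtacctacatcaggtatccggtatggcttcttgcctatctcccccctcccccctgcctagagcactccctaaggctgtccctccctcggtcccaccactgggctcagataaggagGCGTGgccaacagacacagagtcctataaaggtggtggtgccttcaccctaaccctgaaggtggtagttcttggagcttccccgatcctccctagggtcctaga
Cyp1b1: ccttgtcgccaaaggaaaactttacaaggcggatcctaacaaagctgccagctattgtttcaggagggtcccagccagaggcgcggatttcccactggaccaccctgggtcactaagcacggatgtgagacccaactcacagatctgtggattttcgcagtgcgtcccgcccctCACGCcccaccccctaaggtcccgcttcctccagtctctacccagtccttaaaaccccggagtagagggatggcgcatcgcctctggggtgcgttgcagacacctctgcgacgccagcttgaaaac
Ahrr: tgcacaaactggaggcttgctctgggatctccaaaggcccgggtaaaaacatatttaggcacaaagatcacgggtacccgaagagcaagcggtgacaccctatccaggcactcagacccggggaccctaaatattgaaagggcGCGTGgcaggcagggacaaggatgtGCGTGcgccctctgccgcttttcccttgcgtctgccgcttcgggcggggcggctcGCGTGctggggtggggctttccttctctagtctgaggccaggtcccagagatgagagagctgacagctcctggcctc
The window of Cyp1a1 held 1 match, that of Cyp1b1 held 1 and that of Ahrr held 3. Over all 32851 promoter entries of this length, 32.4% held at least 1 match and 3.91% held at least 3. Of the 10 battery genes with an entry, 6 held a match, the others in this group being Tiparp, Gsta1 and Gsta2. A match describes the letters of this window and was not tested as a binding site.

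The arrays carried the markers of squamous epithelium. Krt5 and Krt14, keratins of basal cells, averaged 3.63 and 3.57 in the vehicle mice and 3.68 and 3.50 in the dosed mice, and with Krt4, Krt13 and Trp63 they were well above background on all 14 arrays. Ivl, which encodes involucrin, was well above background on 4 vehicle and 5 BkF arrays and Krt6a on 2 and 8. Glandular stomach was present as well, to a degree that separated the arrays. The mean log2 ratio of 5 genes made there (Gkn1, Gkn2, Tff1, Atp4a and Atp4b, termed the glandular score) was 0.84, 6.10, 6.05 and 1.25 in vehicle mice 1 to 4. It was 5.94 to 6.24 in the 3 D1 mice, 2.46 to 6.46 in the 4 D2 mice and 1.63 to 5.79 in the 3 D3 mice. The 14 scores formed 2 clusters, 5 arrays from 0.84 to 2.46 (vehicle mice 1 and 4, D2 mouse 11, D3 mice 16 and 20) and 9 arrays from 5.02 to 6.46 (vehicle mice 2 and 3 and 7 BkF mice). The mean score was 1.21 higher in the BkF mice (4.78 ± 1.91, SD, n = 10) than in the vehicle mice (3.56 ± 2.91, SD, n = 4), a difference within the spread of the mice (two-sided exact permutation test over 1001 assignments, p = 0.272). With 1 array left out this difference was 0.31 to 2.06. The score entered the model as a covariate, so each difference below is BkF minus vehicle at equal score, and its slope passed an adjusted p of 0.05 for 2785 of the 25305 probes tested (11%).

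**Figure D1:**
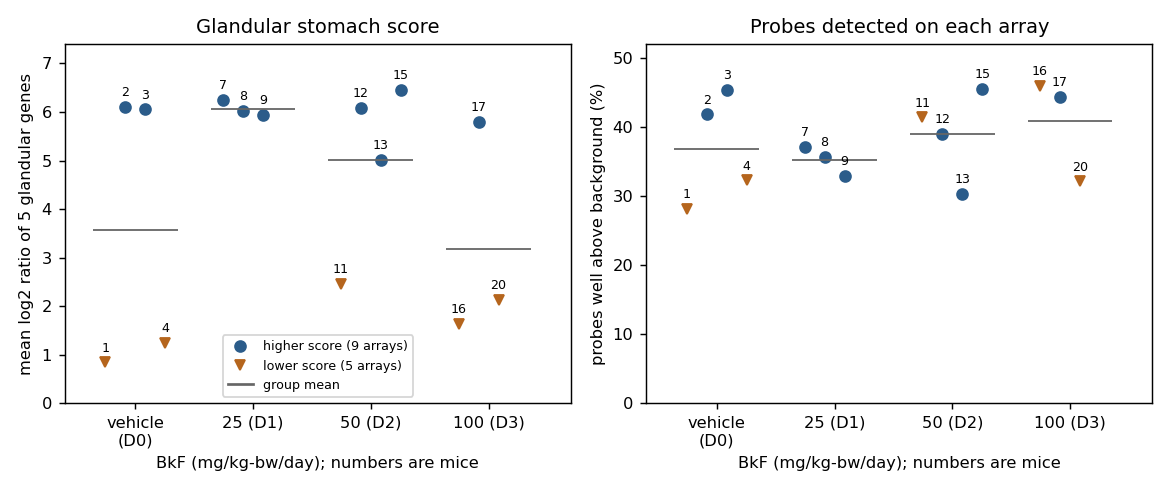
Each point is the forestomach array of 1 mouse (number beside it), grouped by dose, with the mean log2 ratio of 5 glandular stomach genes on the left and the percentage of probes well above background on the right; lines are group means. Triangles mark the 5 arrays of the lower score cluster (0.84 to 2.46), which hold 2 vehicle, 1 D2 and 2 D3 mice, and circles the 9 arrays from 5.02 to 6.46.

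Other differences between the arrays ran partly along the groups. The share of probes well above background was 28.1% to 46.0% and did not separate BkF from vehicle (mean difference 1.54 percentage points, exact permutation p = 0.684), but vehicle mice 1 and 4 were among the 4 dimmest arrays, with D2 mouse 13 and D3 mouse 20. Dose followed the column of the slide: D1 arrays lay in column 2, D2 in column 3 and D3 in column 4, and vehicle arrays in column 1 except for vehicle mouse 2 in column 2. D2 and D3 cannot be told apart from their columns, and D1 shared its column with only 1 vehicle array. Slide 2 held no vehicle array. Differences within slides 1, 3 and 4 are given for some of the genes and lists.

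With all 14 arrays, no probe reached the threshold between BkF and vehicle. The threshold was a Benjamini-Hochberg adjusted p up to 0.05 together with a difference of 1.5-fold or more. In limma 0 of 25305 probes passed it (0%), and the smallest adjusted p was 0.712. Before adjustment 1710 probes had a p under 0.05 (6.76%), 721 of them higher (2.85%) and 989 lower (3.91%) in the BkF mice. Among differences of at least 1.5-fold the lower ones were more numerous, 582 probes (2.3%) against 132 (0.522%). All limma adjusted p values in the paragraphs on single genes below are 0.712 or above unless another is given, so the values are a description of these mice and not calls. The count rested on 1 control array. Without vehicle mouse 4, 58 probes passed, 1 higher (0.00395% of the probes) and 57 lower (0.225%), and these are described after the gene groups.

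Within the AhR battery, Cyp1a1, Ahrr and Cyp1b1 lay above every vehicle mouse in 8, 8 and 9 of the 10 BkF mice. Cyp1a1, the P450 most responsive to the receptor, had log2 ratios of 0.60, 0.38, -0.01 and -0.39 in vehicle mice 1 to 4, and it was well above background in only 1 of them. The ratios in the 10 BkF mice ran from 0.12 through a median of 2.00 to 4.78, with 8 above every vehicle mouse. The highest were D2 mouse 12 (4.78), D3 mouse 16 (4.66) and D3 mouse 17 (3.42), while D1 mice 7 and 9 (0.12 and 0.13) lay within the vehicle range. At equal glandular score the fitted difference was 2.30 on the log2 scale (SE 0.79, 95% interval 0.61 to 3.99). With 3 of 4 vehicle arrays not well above background, its size depends on signal near background. The other settings gave 1.60 to 4.81, and the lower and higher score clusters 3.03 and 1.60 without a covariate (treatment by cluster term, limma adjusted p = 0.725). Within slides 1, 3 and 4 the unadjusted differences of means were 0.79, 1.62 and 2.47.

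Ahrr, the repressor, had ratios of 0.04, 0.47, 0.39 and 0.05 in the vehicle mice. In the BkF mice it ran from 0.04 through a median of 0.87 to 2.04, again with 8 of 10 above every vehicle mouse and with D1 mice 7 and 9 as the exceptions (0.04 and 0.26). The fitted difference was 0.74 (SE 0.27, 95% interval 0.16 to 1.33), but Ahrr was well above background on only 2 of 4 vehicle arrays (not on those of mice 1 and 4) and on 8 of 10 BkF arrays. Without a covariate the difference was 0.20 in the higher score cluster, where both vehicle arrays were well above background, and 1.41 in the lower cluster, where neither was (difference between the clusters -1.21, SE 0.44, limma adjusted p = 0.287). The BkF mice of the higher cluster were 3 D1, 3 D2 and 1 D3 and those of the lower cluster 1 D2 and 2 D3. Cluster and dose are therefore mixed, for Cyp1a1 as well. Over the other settings the Ahrr difference ran from 0.20 to 1.70. Cyp1b1, the second P450, lay at -0.78, -1.04, -0.94 and -0.59 in the vehicle mice and between -1.51 and 1.46 in the BkF mice, with a median of -0.08. Of the BkF mice 9 were above and D1 mouse 7 was below every vehicle mouse, and the difference was 0.92 (SE 0.38, 95% interval 0.10 to 1.74). Within slides 1, 3 and 4 the means of Cyp1b1 differed by 0.14, 0.34 and 1.02. The differences of all 3 genes, whose promoters are shown above, missed the threshold after adjustment.

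**Figure D2:**
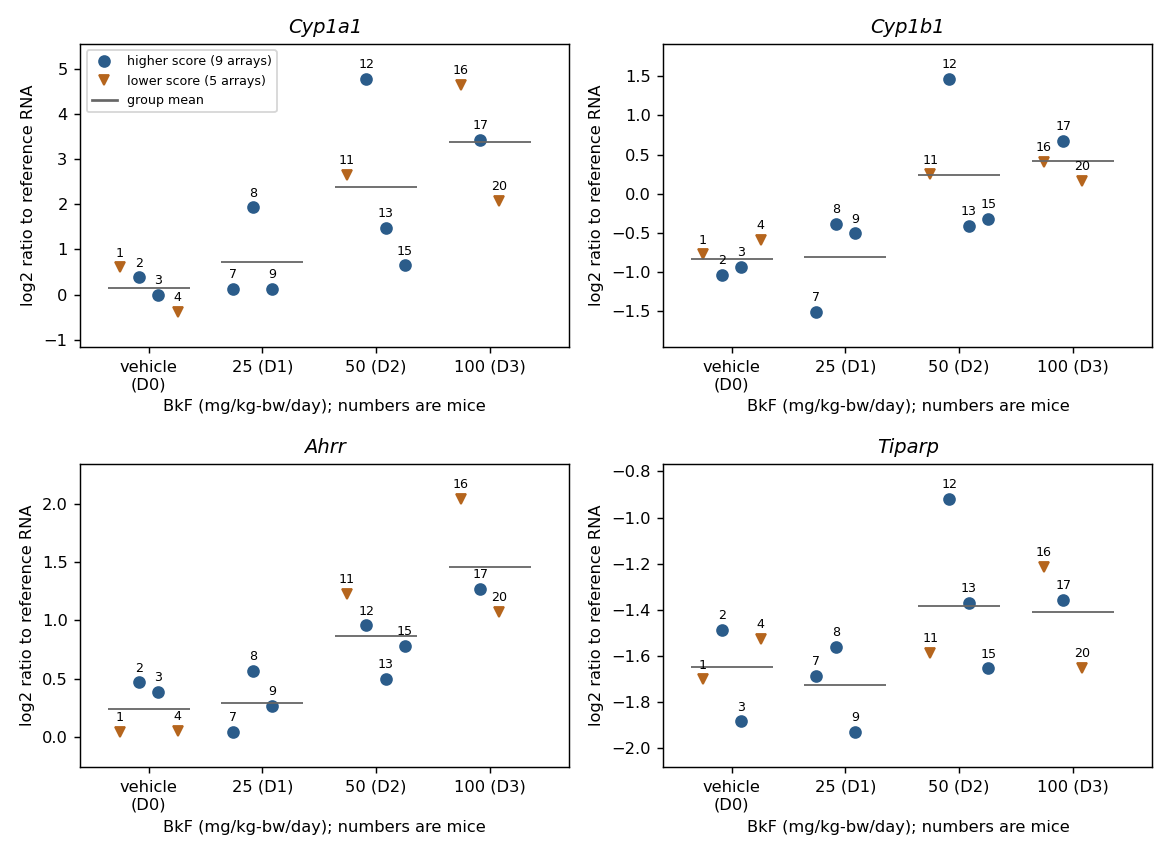
Log2 ratio of forestomach over reference RNA for Cyp1a1, Cyp1b1, Ahrr and Tiparp in each mouse (number beside the point) by BkF dose, with group means as lines and the 2 clusters of the glandular score as symbols. For Cyp1a1 the vehicle mice lie between -0.39 and 0.60 and the BkF mice between 0.12 and 4.78, with D1 mice 7 and 9 inside the vehicle range.

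The other battery genes had differences under 0.5 on the log2 scale. Tiparp, an ADP-ribosyltransferase that also represses the receptor, differed by 0.17 (SE 0.16), with 0.063 at a second probe. Ugt1a6b, a glucuronosyltransferase, differed by 0.45 (SE 0.30), with 0.065 at a second probe and with 6 of 10 BkF mice above every vehicle mouse, and Aldh3a1, an aldehyde dehydrogenase, by 0.06 (SE 0.12), with -0.019 at a second probe. Cyp2s1, a P450 of epithelia, differed by -0.06 (SE 0.16), the quinone reductase Nqo1 by -0.05 (SE 0.35) and Ugt1a6a by 0.03 (SE 0.21), and the glutathione transferases Gsta1 and Gsta2 by -0.20 (SE 0.16) and -0.31 (SE 0.33). Nqo1, Gsta1 and Gsta2 followed the glandular score: Gsta2 was 4.20 to 4.73 in the 3 BkF mice of the lower cluster and 6.47 to 8.26 in those of the higher cluster. Without the score their differences became 0.38, 0.37 and 0.50, so their direction was not determined. Ugt1a6a and Ugt1a6b are near-identical, as are Gsta1 and Gsta2, so the probes of each pair may share signal. In all, 7 of the 11 battery genes tested were higher and 4 lower (all probes: 50.6% higher), the median difference was 0.06 against 0.0027 over all probes, and 3 of 11 had an unadjusted p under 0.05 in the higher direction (2.85% of all probes). Of those 3, Cyp1a1 and Ahrr were well above background on 1 and 2 vehicle arrays and on 8 BkF arrays each, so they passed the filter of at least 3 arrays only through the BkF mice, and nothing is read from this count. Cyp1a2 had no probe that passed the filter on dim probes. Of the 6 genes of the receptor complex tested, 3 were higher and 3 lower, with Ahr at 0.07, Arnt at 0.17 and the chaperone Hsp90aa1 at -0.41 (SE 0.24).

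Genes of the outer squamous layers had lower values in the BkF mice. Of 28 genes of the suprabasal and cornified layer tested, 27 had a difference below 0 (49.4% of all probes did), with a median of -0.41, and Tgm3 (0.12) was the exception. The study described changes of epithelial differentiation on these samples, so the list is not independent evidence of its direction. None passed the adjusted threshold. The members Krt4, Sprr1b, Cdsn, Tgm1, Grhl3 and Sprr1a had an unadjusted p under 0.05, which is 6 of 28 against 3.91% of all probes in this direction. Krt4, a keratin of the cells above the basal layer in internal squamous epithelia, stood at 6.37, 6.63, 6.23 and 6.02 in vehicle mice 1 to 4. In the BkF mice it ran from 1.22 (D2 mouse 12) through a median of 4.11 to 6.34 (D3 mouse 16), and 9 of 10 were below every vehicle mouse. The difference was -1.84 (SE 0.70, 95% interval -3.32 to -0.35), and within slides 1, 3 and 4 the means differed by -1.94, -1.35 and -1.63. The other settings gave -3.28 (without the 4 dimmest arrays) to -0.60 (scanner software's log ratios).

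Sprr1b, a small proline-rich precursor of the cornified envelope, stood at 1.098, 2.95, 2.80 and 1.40 in the vehicle mice and ran from -0.00 through a median of 0.62 to 2.09 in the BkF mice. Of these, 8 were below every vehicle mouse, and the gene was well above background on 8 of 10 BkF arrays. The fitted difference was -1.37 (SE 0.41, 95% interval -2.24 to -0.50), while within slides 1, 3 and 4 the means differed by -0.26, -0.73 and -1.63. Sprr genes form a family of close relatives and their probes may share signal. Tgm1, the transglutaminase that cross-links the envelope, differed by -0.96, the adhesion protein gene Cdsn by -0.97 and Grhl3, a transcription factor of epithelial barrier formation, by -0.92. Among the other members, Lor differed by -0.32, Krt13 by -0.29, Krtdap by -0.18 and Ivl by -0.02. Leaving out any 1 array kept the median of the list between -0.63 and -0.29, and the other settings gave -0.92 to -0.26 with 22 to 27 genes lower.

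Most genes of the basal layer had a difference above 0. Of 12, 10 were higher (50.6% of all probes), with a median of 0.25, and 3 had an unadjusted p under 0.05 (2.85% of all probes in this direction). They included both integrin subunits of the hemidesmosome, Itgb4 and Itga6. Itgb4 stood at 2.97, 2.71, 3.81 and 3.56 in vehicle mice 1 to 4 and between 3.60 and 4.59 in the BkF mice, with a median of 4.12 and with 8 of 10 above every vehicle mouse. The difference was 0.83 (SE 0.21, 95% interval 0.39 to 1.28). Itga6 differed by 0.66 (SE 0.24). The basal keratins did not share this: Krt5 differed by 0.06, Krt14 by -0.05 and Krt15 by -0.11, and the basal transcription factor Trp63 by 0.10. The median of the list was 0.07 to 0.41 with 1 array left out, and 0.08 to 0.37 under the other settings, with 8 to 11 genes higher. At D1, however, the median was 0.03 with 6 of 12 lower. Within slide 3, without a covariate, it was -0.0087 with 6 of 12 lower.

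**Figure D3:**
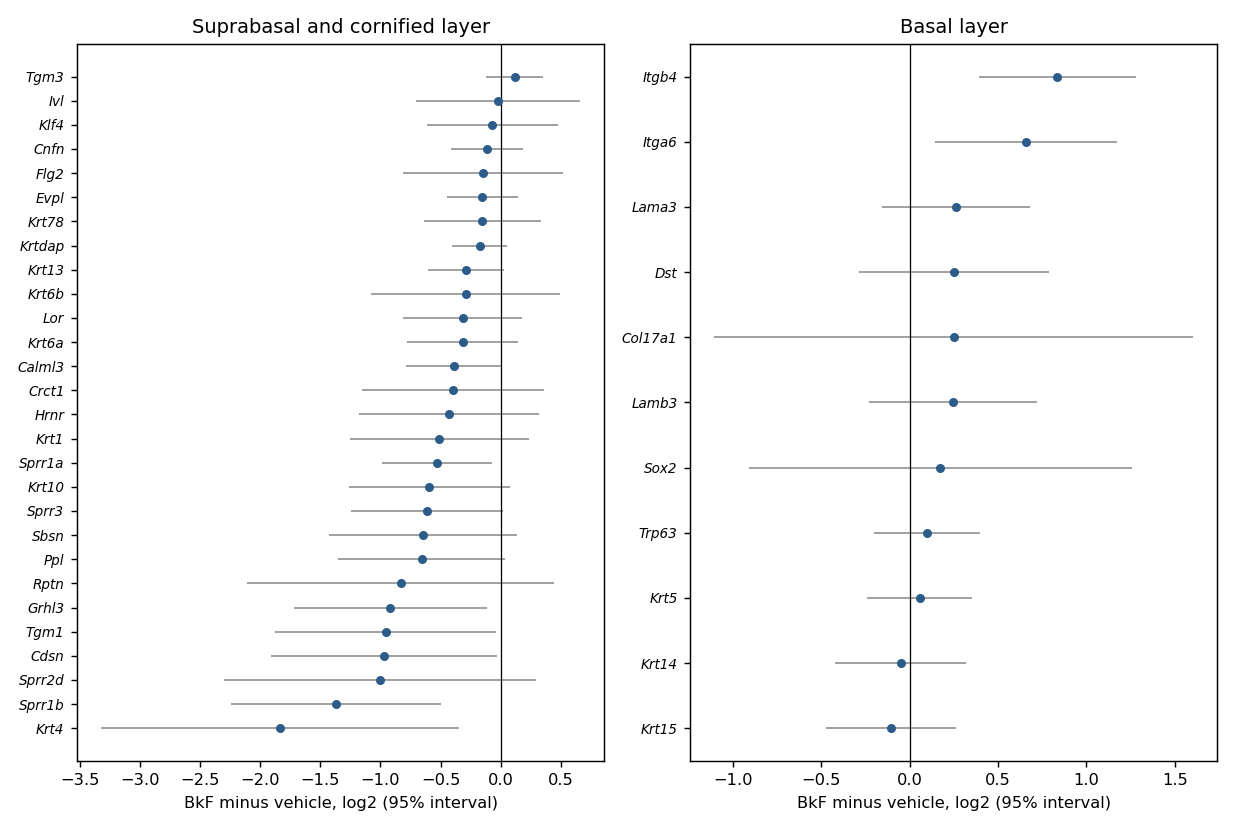
Difference of BkF minus vehicle at equal glandular score for each gene of the suprabasal and cornified layer (left, 28 genes) and of the basal layer (right, 11 of its 12 genes), on the log2 scale with 95% intervals from limma over 14 arrays. On the left 27 points lie below 0, from Krt4 at -1.84 upwards, and on the right Itgb4 lies highest at 0.83.

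The lower values of the suprabasal genes lay mainly in the arrays with much glandular stomach. Among the 9 arrays of the higher score cluster, Krt4 was 6.23 and 6.63 in the 2 vehicle mice and 1.22 to 4.80 in the 7 BkF mice, with a gap between the groups. Among the 5 arrays of the lower cluster it was 6.02 and 6.37 in the vehicle mice and 5.66 to 6.34 in the BkF mice, which overlapped. Across the list, every BkF array was below both vehicle arrays for 14 of 28 genes in the higher cluster (7.56% of all probes) and for 0 of 28 in the lower cluster (8.54% of all probes). The opposite order held for 0 of 28 in the higher cluster (4.64%) and for 2 of 28 in the lower cluster (11.5%). Without a covariate the median difference was -0.92 in the higher cluster, with 26 of 28 genes lower, and 0.04 in the lower cluster, with 13 of 28 lower. Many markers of other cell types also differed in sign between the clusters, but not all in the same way. In the higher cluster 10 of 10 smooth muscle markers were lower (median -0.47), 8 of 8 markers of enteric neurons and glia (-0.68) and 8 of 8 hepatocyte markers (-0.97). In the lower cluster 3 of 10 (0.16), 0 of 8 (0.67) and 3 of 8 (0.13) were lower. The medians of B and plasma cell markers (-0.37 in the lower and 0.41 in the higher cluster) and of T and cytotoxic cell markers (-0.43 and 0.19) went the other way, and those of fibroblasts (0.10 and 0.17) and white fat (-0.31 and -0.10) kept 1 sign. For the basal layer 4 of 12 genes were lower in the higher cluster (median 0.10) and 0 of 12 in the lower cluster (0.44). The part of the other cell types was not tested. When the difference between the clusters was itself tested by a treatment by cluster term, 0 of 25305 probes passed (0%). At an unadjusted p under 0.05 it reached 11 of the 28 genes, all lower in the higher cluster, against 7.98% of all probes in this direction and 4.85% in the other. Sprr1b differed between the clusters by -2.46 (SE 0.51, limma adjusted p = 0.12) and Krt4 by -2.94 (SE 1.12, limma adjusted p = 0.303). The clusters also differ in dose, since the 7 BkF mice of the higher cluster were 3 D1, 3 D2 and 1 D3 and the 3 of the lower cluster were 1 D2 and 2 D3, and both vehicle arrays of the higher cluster lay on slide 4. Within D2, Krt4 was 5.66 in the mouse of the lower cluster and 1.22, 3.26 and 3.47 in those of the higher cluster, and within D3 it was 5.75 and 6.34 against 4.75.

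Markers of smooth muscle varied between the arrays as well. The mean of 10 smooth muscle markers was 4.13 to 4.58 over the vehicle arrays and 2.45 to 5.16 over the BkF arrays. At equal score 9 of the 10 markers were lower, with a median of -0.20 (Des -0.36, Actg2 -0.24, Myh11 -0.23). This direction was not stable: at D2 only 2 of 10 were lower (median 0.13). The other settings gave medians of -0.48 to 0.16, with 0 to 10 lower. D2 mouse 12 had the lowest mean of both the smooth muscle markers (2.45) and the suprabasal genes (3.09). D2 mouse 15 had the highest smooth muscle mean (5.16), while its suprabasal mean (4.06) lay below every vehicle array. All 8 hepatocyte markers were lower at equal score, with a median of -0.73 (Apoa1 -1.03, Alb -0.77). Their array means were 0.39 to 2.78 in the vehicle mice and 0.43 to 3.39 in the BkF mice. In the vehicle mice these means ran with the glandular score, at 2.78 and 2.47 in mice 2 and 3 against 0.39 and 0.52 in mice 1 and 4. The other settings gave list medians of -0.97 to -0.11. Alb was well above background on 2 vehicle and 6 BkF arrays. Of the mast cell markers 7 of 8 were lower (median -0.14), and of the fibroblast markers 8 of 10 were higher (median 0.24). The part of mast cells and fibroblasts was not tested either.

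The single genes with the smallest unadjusted p among differences of at least 1.5-fold were led by lower values. Ugcg, which encodes glucosylceramide synthase, was 0.98, 1.06, 0.75 and 1.38 in vehicle mice 1 to 4 and -0.17 to 0.71 in the BkF mice, with a median of 0.09. All 10 BkF mice were below every vehicle mouse, as for 30 of all probes (0.119%, against 0.0751% for the opposite order), and the difference was -0.74 (SE 0.14). Lgalsl, a galectin-related gene, was 3.63, 2.40, 2.26 and 2.43 in the vehicle mice and 0.86 to 2.24 in the BkF mice, with a median of 1.45, again without overlap and with a difference of -0.94 (SE 0.19). Krtap10-4 and Krtap5-5, genes of keratin-associated proteins from large families whose probes may share signal, differed by -1.60 (SE 0.34) and -0.71 (SE 0.17), and a second probe of Krtap5-5 gave -0.37. Rbpjl, a transcription factor gene best known from pancreatic acinar cells, differed by -1.16 (SE 0.25), the secreted ligand Wnt4 by -0.69 (SE 0.17) and the secreted protein gene Metrnl by -0.82 (SE 0.20). Hamp2, a hepcidin gene that was well above background on 2 of 4 vehicle and 7 of 10 BkF arrays, differed by -0.85 (SE 0.18) only at equal score: its group means were 1.92 and 1.98, it stood at -0.15 and 0.17 in vehicle mice 1 and 4 against 4.05 and 3.62 in mice 2 and 3, and without the score the difference was 0.06.

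Among higher values the smallest unadjusted p was that of Irf1. This gene, a transcription factor induced by interferon, was -1.92, -1.66, -1.50 and -1.20 in vehicle mice 1 to 4 and -1.26 to -0.37 in the BkF mice, with a median of -0.86. Of the BkF mice 9 were above every vehicle mouse, and the difference was 0.75 (SE 0.17). H2-K1, a class I histocompatibility gene with close relatives, differed by 0.83 (SE 0.22), with 0.48 at a second probe. Tnip1, an inhibitor of NF-kB signalling, differed by 0.68 (SE 0.20), with 0.41 at a second probe, and Chuk, a kinase of the same pathway, by 0.65 (SE 0.21). The other genes named by this rule were Itgb4 (above), Mllt6 at 0.78 (SE 0.23), the metalloproteinase gene Pappa at 0.92 (SE 0.29) and the clock output gene Dbp at 0.99 (SE 0.29). Only 1 of 10 BkF mice for Mllt6 and 4 of 10 for Dbp lay above every vehicle mouse. Within slides 1, 3 and 4 the means differed by 1.01, -0.07 and 0.84 for Mllt6 and by 0.65, -0.21 and 1.26 for Dbp.

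Enzymes of cholesterol synthesis were lower almost throughout. Of 23 genes tested, 22 had a difference below 0 (49.4% of all probes), with a median of -0.20, and 4 had an unadjusted p under 0.05 (3.91% of all probes in this direction). Pmvk, phosphomevalonate kinase, was 0.96, 0.66, 0.88 and 0.98 in vehicle mice 1 to 4 and -0.04 to 0.56 in the BkF mice, with a median of 0.28 and no overlap. The difference was -0.52 (SE 0.11), with -0.50 at a second probe. Tm7sf2, a sterol reductase, differed by -1.08 (SE 0.30), with -0.98 at a second probe, and Hsd17b7 by -0.66. Without a covariate Tm7sf2 differed by -0.40 in the lower and -1.74 in the higher score cluster (treatment by cluster term, limma adjusted p = 0.2675). The transcription factor gene Srebf2 differed by -0.11. Across the other settings the median was -0.34 to -0.14, with 15 to 23 genes lower. Within slide 3, without a covariate, 14 of 23 were lower (median -0.14).

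For the circadian clock 10 of 13 genes were higher (median 0.26), led by Dbp, which encodes a transcription factor of clock output and ran from -2.01 to -0.38 in the vehicle mice and from -2.10 to 0.53 in the BkF mice. The median was -0.14 at D1, with 9 of 13 lower, against 0.37 at D2 and 0.38 at D3, and the other settings took the pooled median down to 0.0076. The repressor gene Nfil3 differed by -0.44 (SE 0.16) and Clock by -0.48. For MHC class II 5 of 6 were higher (median 0.29, but -0.11 with 4 of 6 lower in the higher score cluster), with the invariant chain gene Cd74 at 0.73 (SE 0.33). Of 13 interferon-stimulated genes 11 were higher (median 0.10), but 8 were lower at D2 (median -0.07) and 8 in the lower score cluster (-0.16), and the other settings gave -0.035 to 0.28. Members with the smallest unadjusted p were Ddx58 and Ifih1, sensors of viral RNA, at 0.27 (SE 0.13) and 0.26 (SE 0.13). Among Nrf2 and glutathione genes 12 of 18 were lower (median -0.08). Hmox1, haem oxygenase, was 1.38, 0.75, 0.72 and 1.20 in the vehicle mice and -1.95 to 1.24 in the BkF mice, and it differed by -1.13 (SE 0.32), with -0.40 at a second probe, while G6pdx differed by -0.50 (SE 0.18).

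Genes of the DNA damage response showed small differences. The p53 targets were split evenly, with 9 of 18 higher and a median of -0.00. Cdkn1a, the inhibitor of cyclin-dependent kinases, differed by -0.36 (SE 0.22), Mdm2, which targets p53 for degradation, by 0.23 (SE 0.14), Ccng1 by 0.25 (SE 0.16) and Bbc3, a mediator of apoptosis, by 0.29 (SE 0.12). With 1 array left out Cdkn1a ran from -0.45 to -0.18 and Bbc3 from 0.12 to 0.39. Among genes of excision repair and lesion bypass 12 of 16 were higher (median 0.09), with the polymerase subunit gene Rev3l at 0.36 (SE 0.14) and the damage-binding gene Ddb2 at 0.29 (SE 0.13). Of the cell cycle genes 12 of 19 were higher (median 0.03), with the helicase genes Mcm6 and Mcm2 at 0.46 (SE 0.17) and 0.30 (SE 0.18, and 0.08 to 0.47 with 1 array left out). This median joined opposite signs: without a covariate 14 of 19 were lower in the lower score cluster (median -0.25) and 0 of 19 in the higher cluster (0.33), and the dose medians were 0.33 at D1, 0.06 at D2 and -0.19 at D3. Endocytosis, which the study also described on these samples, had 19 of 31 genes higher (median 0.03), with Epn1 at 0.56 (SE 0.24; 0.14 without vehicle mouse 2) and Rab5a at -0.33 (SE 0.12), with -0.54 at a second probe. Inflammation genes had 3 of 7 higher (median -0.07), and Nfkbia lay at -0.30 and Il1rn at -0.22.

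**Figure D4:**
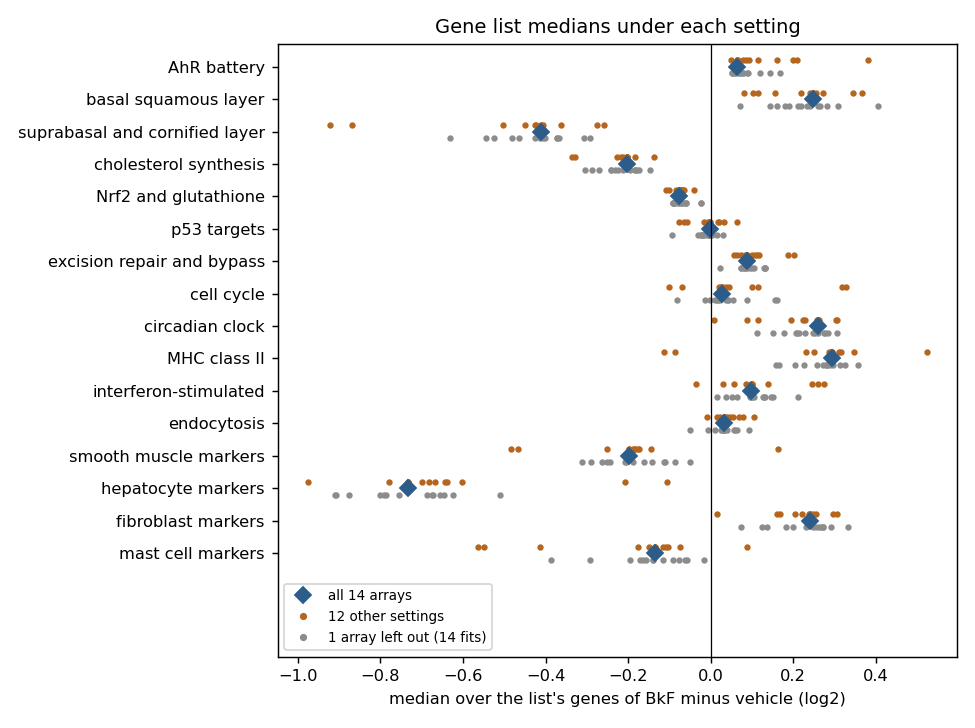
Median over each list's genes of the difference BkF minus vehicle (log2), with all 14 arrays (diamond), under 12 other settings (upper points) and with each array left out in turn (lower points). The suprabasal and cornified layer stays below 0 throughout (-0.41 with all arrays), as does cholesterol synthesis (-0.20). The AhR battery lies at 0.06 with all arrays. Nothing is read from its sign, since Cyp1a1 and Ahrr passed the filter only through the BkF mice. Cell cycle, p53 targets, endocytosis, MHC class II, interferon-stimulated genes and the smooth muscle and mast cell markers lie on both sides of 0.

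Pooling joined 3 doses, so their equality was asked of the same probes. In an F test over D1, D2 and D3 at equal score, 0 of 25305 probes passed (0%) in limma, and 892 had an unadjusted p under 0.05 (3.52%). Cyp1a1 was 0.64 above vehicle at D1, 2.28 at D2 and 3.23 at D3. Ahrr was 0.06, 0.63 and 1.23 above and Cyp1b1 0.05, 1.09 and 1.25. The fitted difference of each of these genes was smallest at D1. D1 mouse 8 nevertheless had a Cyp1a1 ratio of 1.93, above every vehicle mouse. Krt4 was -2.47, -2.57 and -0.79 from vehicle at the 3 doses, and the medians of the suprabasal list were -0.58, -0.48 and -0.28. These orders were not told from equality at the adjusted threshold. Without D1 mouse 9, 10 probes passed the F test, with D1 the highest dose group in each (Myo18b, S100a5, Ccdc42, Prpmp5, Trp73 and Tent5c, the others unnamed), and the members above were not among them.

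The 58 probes that passed without vehicle mouse 4 were again nearly all lower, and named genes among them were chosen after their values were seen. They included Lgalsl at -1.16 (SE 0.14, limma adjusted p = 0.01), Wnt4 at -0.89 (SE 0.12, limma adjusted p = 0.0119), Tm7sf2 at -1.46 (SE 0.20, limma adjusted p = 0.0128) and Hsd17b7 at -0.93. Others were the lipoxygenase Alox12b (-1.09), the epidermal lipase Lipn (-1.84), the lipase cofactor Abhd5 (-0.83), Serpinb7 (-1.83) and Lelp1 (-1.56). These are a selection from 41 probes with a symbol, which also included Vash1 (-1.535), Thsd1 (-1.31) and Hras (-0.72). Alox12b and Abhd5 did not pass under either further restriction given below. Chst1, a sulphotransferase gene, was the 1 higher (0.73). With all 14 arrays the same genes had an adjusted p of 0.712. Of the fixed lists, cholesterol synthesis had 2 of 23 genes and endocytosis 1 of 31 among them, and the AhR battery and the suprabasal list had 0, against 0.225% of all probes lower and 0.00395% higher. Vehicle mouse 4 was 1 of the 4 dimmest arrays and of the lower score cluster, and leaving out the other 3 vehicle arrays 1 at a time gave 0. Further restrictions made after seeing the data left only vehicle mice 2 and 3: without the 4 dimmest arrays 380 probes passed, 28 higher (0.111%) and 352 lower (1.39%), and in the higher score cluster without covariate 214 passed, 6 higher (0.0237%) and 208 lower (0.822%). Of the 58 probes, 26 passed under all 3 restrictions, with Lgalsl, Wnt4, Tm7sf2, Rbpjl, Metrnl and Krtap10-4 among them.

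Whether the pooled effect in forestomach differed from that in the other tissues was tested in 1 model of all 42 arrays. Against lung, 2 of 24504 probes passed (0.00816%, but 0 to 296 probes with 1 array left out), and 8.7% had an unadjusted p under 0.05. Ahrr, one of them (limma adjusted p = 0.0124), was not well above background on any lung vehicle array, where its mean was -0.64 ± 0.29 (SD, n = 4), and was so on 2 of 4 forestomach vehicle arrays. Its lung effect therefore has only a bound, at least 14.4-fold higher with BkF (bounds compare the dosed mean with the lowest signal well above background on each control array, per channel after Aquantile, without dye swaps), and the fitted difference of -3.44 (SE 0.59) is not a measured size. Ccnjl, a cyclin-like gene, was 0.62 lower with BkF in lung and 0.48 higher in forestomach, a difference of 1.099 (SE 0.19, limma adjusted p = 0.0124). Cyp1a1 and Cyp1b1 had lung effects of 5.88 and 5.21 against 2.30 and 0.92 in forestomach, and the differences of -3.58 (SE 1.33) and -4.29 (SE 0.91) missed the threshold (limma adjusted p = 0.377 and 0.0858), with Cyp1a1 near background in the forestomach of vehicle mice as above. The call for Ccnjl was lost with the scanner software's ratios (1.46), without the score (0.82), without lung vehicle mouse 3 (1.04) and without forestomach vehicle mouse 2 (1.00), and that for Ahrr without lung vehicle mouse 3 (fitted value -3.35) and without forestomach vehicle mouse 2 or 3 (-3.23 and -3.27). With the mouse as a random block (replicate block), since the same mice gave the tissues, 11 probes passed against lung and 30 against liver, among them those of the model without it.

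**Figure D5:**
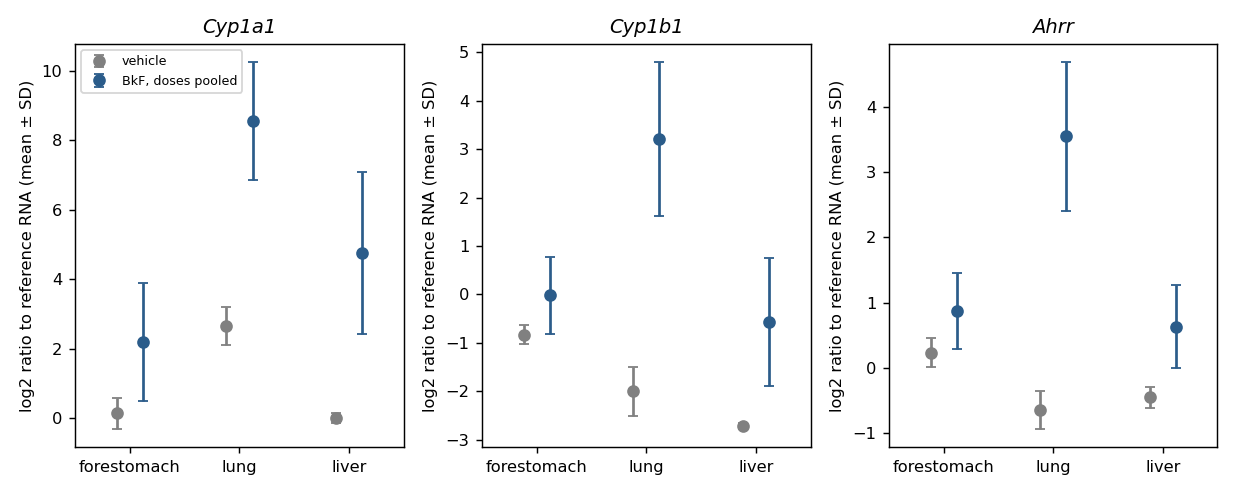
Mean log2 ratio over reference RNA (± SD) of Cyp1a1, Cyp1b1 and Ahrr in vehicle mice (grey, 4 mice per tissue) and in BkF mice of all doses (blue, 10 forestomach, 11 lung and 9 liver), each gene with its own scale. For Ahrr the BkF means are 0.87 in forestomach, 3.55 in lung and 0.63 in liver.

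Against liver, 8 of 22686 probes passed (0.0353%, but 2 to 239 probes with 1 array left out), and 8.55% had an unadjusted p under 0.05. Cd36, a fatty acid transporter gene, was 1.86 higher with BkF in liver and 0.86 lower in forestomach, a difference of -2.72 (SE 0.40, limma adjusted p = 0.00076) that held in every fit with 1 array left out. Hamp2 differed by -1.68, but its call was lost without the score (-0.77) and with the scanner software's ratios (-0.19). Csad, an enzyme of taurine synthesis, differed by 1.65, Srgap3 by 0.94 and Ly6c1 by -1.19, with liver effects of -1.38, -0.67 and 0.98 against forestomach effects of 0.27, 0.27 and -0.21. Each lost its call in 4 fits that left out 1 vehicle array of liver or forestomach, and Csad also without the score (1.51). Neither Cyp1a1, Cyp1b1 nor Ahrr was well above background on a liver vehicle array. With BkF, Cyp1a1 was at least 21.5-fold higher in liver, Cyp1b1 at least 4.10-fold and Ahrr at least 2.03-fold, with Cyp1a1 and Cyp1b1 measured on 8 of 9 arrays. Since the liver effects have only these bounds, the size of the forestomach effects against them is not given. Krt4 was well above background on 3 of the 13 liver arrays and 1 of the 15 lung arrays.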

How the data were processed

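RNA from single mice was hybridised to 2-colour Agilent mouse arrays, with Cy5 for tissue and Cy3 for the reference. The deposited intensity values, per the file headers, are median spot signals from Feature Extraction 10.7.3.1 (lung and forestomach) or 11.0.1.1 (liver), with no normalisation. The deposited log10 ratios of the scanner software, per the file headers, are background-subtracted and dye-normalised. The authors' own processed values are log2 ratios normalised by LOWESS, which correlated with the values used here at 0.995 to 0.999 within arrays (column medians -0.04 to -0.03), and it served as an alternative.

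The log2 ratios of median signals received loess normalisation, array by array, with limma 3.58.1 (R 4.3.3, data.table version 1.17.8), without background correction. Control spots had weight 0, and outlier spots (by the scanner's flags) were dropped. Probes well above background on at least 3 forestomach arrays were kept, 25305 of 55681, and symbols came from RefSeq accessions (47.4% of probes). A gene stands for its kept probe with the highest mean intensity. limma fitted treatment and glandular score with eBayes and Benjamini-Hochberg adjustment, and the study's MAANOVA was replaced by limma. Fits between tissues used all 42 arrays, and the score entered for forestomach. The replicate numbers are mouse numbers and pair the tissues of 1 mouse, with a consensus correlation of 0.0833 with lung and 0.0836 with liver. Arrays number 14, which limits the precision. Each forestomach array is 1 mouse, so its limma p-values weigh a difference against the spread between mice. The main fits between tissues treated the 42 arrays as independent, although the same mice gave the tissues. Alternatives covered background correction, ratio source, dim probes, slide, covariate, dose weighting, shuffled residuals of the limma fit (100 shuffles, a number chosen here; the study shuffled residuals in MAANOVA) and leaving out each array. Normexp used median signals because the files hold no mean signals. The models were tested on simulated data.

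The genes named were the AhR battery, the 8 higher and 8 lower genes with the smallest unadjusted p at 1.5-fold or more with a symbol and a value on all 14 arrays, the 2 genes with the smallest p in each other list, Cdkn1a, Mdm2 and Ccng1, and up to 5 genes called between tissues. Some genes that the rule selects are not reported here. Further list members were named after their values were seen. The groups, lists and members were chosen with earlier results of these data known.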

Additional observations from a re-analysis of the deposited data

Results flagged for a closer look

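Of 178 sets of array values tested, 14 had 1 array far from the others, and chance alone gives about 1 in 20. Among the vehicle mice, mouse 1 stood apart for Lgalsl at 3.63 (next 2.43), Wnt4 at 2.29 (next 1.45) and H2-DMa at 0.0357 (next -0.82). Vehicle mouse 2 stood apart for Bbc3 at -1.945 (next -1.44) and the mean of the cell cycle genes at -2.28 (next -2.02). Vehicle mouse 4 stood apart for Nfkbia at 0.95 (next 0.36), Cd36 at 0.25 (next 0.98) and the mean of the MHC class II genes at 0.98 (next 1.32). Among the BkF mice, D2 mouse 13 was the highest for Ddb2 at -0.26 (next -0.67) and Mdm2 at -0.15 (next -0.50), and D2 mouse 12 the lowest for the MHC class II mean at 0.55 (next 1.31). D3 mouse 20 was apart for the mean of the inflammation genes at 0.37 (next -0.27), D3 mouse 16 for the white fat markers at 5.04 (next 1.58) and D2 mouse 15 for the hepatocyte markers at 3.39 (next 1.84).

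The pooled effect differed between forestomach and another tissue for 10 probes (limma, forestomach minus the other tissue, log2). Against lung these were Ccnjl at 1.099 and Ahrr at a fitted -3.44, which is not a measured size because Ahrr was well above background on 0 of 4 lung vehicle arrays. Against liver they were Cd36 at -2.72, Hamp2 at -1.68, Srgap3 at 0.94, Ly6c1 at -1.19, Csad at 1.65, Tuba8 at -3.69, Tff3 at 1.98 and a probe without a symbol, A_55_P2076994, at -0.93.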

How the results depend on the processing

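The count of 0 probes for BkF against vehicle held under 11 of 13 other settings and became 214 in the higher score cluster and 380 without the 4 dimmest arrays, both chosen after seeing the data. The planned limit on the score kept all arrays on its raw scale, so it was read on the centred score. With 1 array left out the count was 0 to 58 (58 without vehicle mouse 4), and for the doses 0 to 10 (10 without D1 mouse 9). Against lung the count of 2 became 4 with normexp, 4 with the scanner software's ratios, 4 without the filter on dim probes, 1 without the score, 22 with other glandular genes, 17 with slide as a random block and 11 with the mouse as a replicate block. Against liver the count of 8 became 14, 28 and 13 under the first 3 of these, 41 with other glandular genes, 19 with slide and 30 with the mouse as a replicate block. With 1 array left out it was 0 to 296 against lung and 2 to 239 against liver, both highest without forestomach vehicle mouse 4 and lowest without lung vehicle mouse 3 and forestomach vehicle mouse 2. The cause of these shifts was not tested.

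Of single genes, 669 values under other settings kept direction and side of the threshold, 21 passed it and 18 turned. Without the score Ugt1a6a was -0.042, Nqo1 0.38, Gsta1 0.37, Gsta2 0.50 and Hamp2 0.0588. In the higher cluster Ugt1a6a was -0.38, Nqo1 0.43, Gsta1 0.0689 and Gsta2 0.22. Without the 4 dimmest arrays Ugt1a6a was -0.36, Nqo1 0.58, Gsta1 0.14, Gsta2 0.38 and Cyp2s1 0.0359. With equal weight of the doses Ugt1a6a was -0.0443 and Nqo1 0.00451, with the scanner software's ratios Ugt1a6a was -0.19, and with other glandular genes Nqo1 was 0.0308. With 1 array left out Ugt1a6a ran from -0.0838 to 0.17, Nqo1 from -0.34 to 0.22, Gsta2 from -0.64 to 0.0791 and Cyp2s1 from -0.0964 to 0.00090. Among list medians 334 moved by less than the spread between replicates and 26 by more. Shuffled residuals gave 0 calls.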
